A study of Mus musculus with 10 samples.

Results

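The genes of MHC class I presentation were followed in mouse liver RNA through 10 genes chosen by name. These were the heavy chains H2-K1 and H2-D1, the light chain B2m, the peptide transporter genes Tap1 and Tap2, tapasin (Tapbp), the immunoproteasome subunits Psmb8, Psmb9 and Psmb10, and the transactivator Nlrc5. All 10 were found among the 38922 genes of the files by matching Ensembl identifiers to symbols, and all 10 had enough counts to be tested. Livers came from wild type male C57BL/6N mice, an inbred strain, at 6 weeks of age. One group of 5 mice received an intraperitoneal injection of CD95-Ab at 0.5 µg/g, an antibody against the death receptor Fas that activates it, and 5 control mice received an equal volume of saline. All livers were taken at 6 h, and each mouse gave 1 library. Both groups carried the same genotype, and neither carried a transgene, so the comparison covers males of a single strain and age at a single time.

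Nearly every nucleated cell shows fragments of its own proteins on MHC class I molecules, where CD8 T cells and natural killer cells can inspect them. Proteasomes cut proteins into peptides, the TAP transporter carries the peptides into the endoplasmic reticulum, and tapasin holds the empty heavy chain and β2-microglobulin next to TAP until a peptide fits. Interferons raise the genes of this pathway in many cell types, partly through NLRC5, and exchange the catalytic subunits of the proteasome for inducible ones. Hepatocytes are known to carry little class I in the resting liver, whereas Kupffer cells and sinusoidal endothelial cells carry more.

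Of the 10 genes, 4 were higher after CD95-Ab than after saline at a false discovery rate (FDR) of 0.05 or less, namely H2-D1, Tap2, Psmb10 and Nlrc5, and 0 were lower. The test was the quasi-likelihood test of edgeR with Benjamini-Hochberg adjustment over all 13719 genes tested. By the same rule 47.3% of all genes tested were called, 25.4% as higher and 22.0% as lower. All 10 log2 fold changes were positive, from 0.11 for B2m to 0.98 for Tap2, with a median of 0.77 beside a median of 0.01 over all genes tested. A positive value was found for 50.4% of all genes tested. Without adjustment, 7 of the 10 had a p of 0.05 or less in edgeR, all of them higher, as did at least the 25.4% of all genes called higher at the FDR. DESeq2 called 5 higher and 0 lower. Over all genes DESeq2, which started from more genes, called 7546 in either direction, against 6495 in edgeR. The share of all genes that were higher was not worked out for DESeq2 or without adjustment. The counts of 5 and 7 members can therefore not be set against it. No member reached the log2 fold change of 2 that 6.59% of tested genes passed together with the FDR. For no member did all 5 CD95-Ab mice lie above all 5 controls, an order found for 18.6% of the genes tested. The members were named with earlier results of these data known, so these counts are a description.

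Totals ranged from 25965699 to 62097636 counts per mouse in controls and from 27480796 to 44962196 after CD95-Ab. The 8 hepatocyte markers, among them albumin, were present in every mouse and summed to between 108130 and 131210 CPM (counts scaled to a total of 1000000 after adjustment of the totals with TMM factors) in controls and between 56729 and 92626 CPM after CD95-Ab. Of the hepatocyte markers 4 were lower and 1, Fgb, was higher after the antibody. Among the tested markers of other cells, 7 of 7 for neutrophils, 10 of 11 for lymphocytes, 7 of 8 for sinusoidal endothelial cells, 4 of 7 for dendritic cells and 2 of 8 for Kupffer cells and macrophages were higher, and 0 were lower in edgeR, in DESeq2 or at an unadjusted p of 0.05. Of all genes tested, edgeR called 25.4% higher and 22.0% lower. The count of Kupffer cell and macrophage markers was near that share and is no result about these cells. The sum of 8 neutrophil markers went from between 4.19 and 10.6 CPM in controls to between 110 and 452 CPM, and that of 12 lymphocyte markers from between 5.92 and 19.3 CPM to between 48.7 and 78.3 CPM. Most of the lymphocyte sum was Ptprc in every mouse, a gene that other leukocytes also express. Ptprc alone had 4.17 to 13.3 CPM in controls and 37.5 to 66.1 CPM after CD95-Ab, so this sum is no measure of lymphocytes alone. The sum of 8 sinusoidal endothelial markers lay between 63.1 and 153 CPM in controls and between 202 and 359 CPM after CD95-Ab, and that of 8 dendritic cell markers between 7.44 and 10.6 CPM and between 18.0 and 27.9 CPM. The sum of 8 Kupffer cell and macrophage markers overlapped between groups, from 149.9 to 502 CPM in controls and from 288 to 639 CPM after CD95-Ab. No marker was at 0 in all mice. Their part in the values of the class I genes was not tested, and in whole liver fewer cells of a type cannot be told apart from less RNA per cell.

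Levels of different genes were compared in FPKM, which divide fragment counts by transcript length and by the total. In control livers B2m had 1896 ± 449 FPKM, H2-K1 had 736 ± 157 FPKM, H2-D1 had 251 ± 78.6 FPKM and Tapbp had 41.9 ± 18.5 FPKM (SD, n = 5 mice each). The ranges of these 4 genes did not overlap with one another. Psmb10 followed at 25.5 ± 10.8 FPKM and Psmb8 at 21.7 ± 9.25 FPKM, then Psmb9 at 12.1 ± 6.32, Tap1 at 11.1 ± 7.30, Nlrc5 at 8.94 ± 4.56 and Tap2 at 8.21 ± 2.73 FPKM (SD, n = 5). From Tapbp downwards each gene overlapped with the next in this order. After CD95-Ab the order of the mean FPKM was the same except for the last pair, with Tap2 at 15.2 ± 6.21 FPKM and Nlrc5 at 15.02 ± 4.06 FPKM (SD, n = 5).

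The classical heavy chains H2-K1 and H2-D1 hold the peptide and are read by T cell receptors. H2-D1 (ENSMUSG00000073411, chr17:35262730-35267499, plus strand, GRCm38 as in GENCODE release M21) had 587, 585, 353, 392 and 444 CPM in saline-injected mice 1 to 5. After CD95-Ab it had 860, 989, 850, 855 and 508 CPM in mice 1 to 5. CD95-Ab mice 1 to 4 were above every control, while CD95-Ab mouse 5 lay between the controls. The fold change was 1.72, or 0.78 ± 0.21 (SE) on the log2 scale (edgeR, FDR = 0.0091, n = 5 mice per group). In the longest coding transcript of H2-D1, 4.64% of the 100-base windows also occur in transcripts of other genes, among them H2-Q1 and H2-T23, so a small share of its reads could have been divided differently by the counting step.

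H2-K1 (ENSMUSG00000061232, chr17:33996017-34000347, minus strand) had 1271, 1186, 906, 977 and 1106 CPM in controls 1 to 5 and 1499, 1558, 1399, 1818 and 918 CPM in CD95-Ab mice 1 to 5. Again CD95-Ab mice 1 to 4 were above every control and CD95-Ab mouse 5 was not. The log2 fold change of H2-K1 was 0.40 ± 0.19 (SE), which did not pass the threshold (edgeR, FDR = 0.104), with a 95% interval from -0.02 to 0.82. No 100-base window of the H2-K1 transcript was shared with another gene.

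B2m (ENSMUSG00000060802, chr2:122147686-122153083, plus strand) encodes β2-microglobulin, the light chain that pairs with every classical heavy chain and with most class I-like chains. It had 1644, 1674, 1070, 1243 and 1718 CPM in controls 1 to 5 and 1617, 1651, 1402, 1918 and 1363 CPM in CD95-Ab mice 1 to 5. The groups lay on top of each other, with 1 CD95-Ab mouse above all controls. The log2 fold change of B2m was 0.11 ± 0.18 (SE), with a 95% interval from -0.28 to 0.51 (edgeR, FDR = 0.628).

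**Figure D1:**
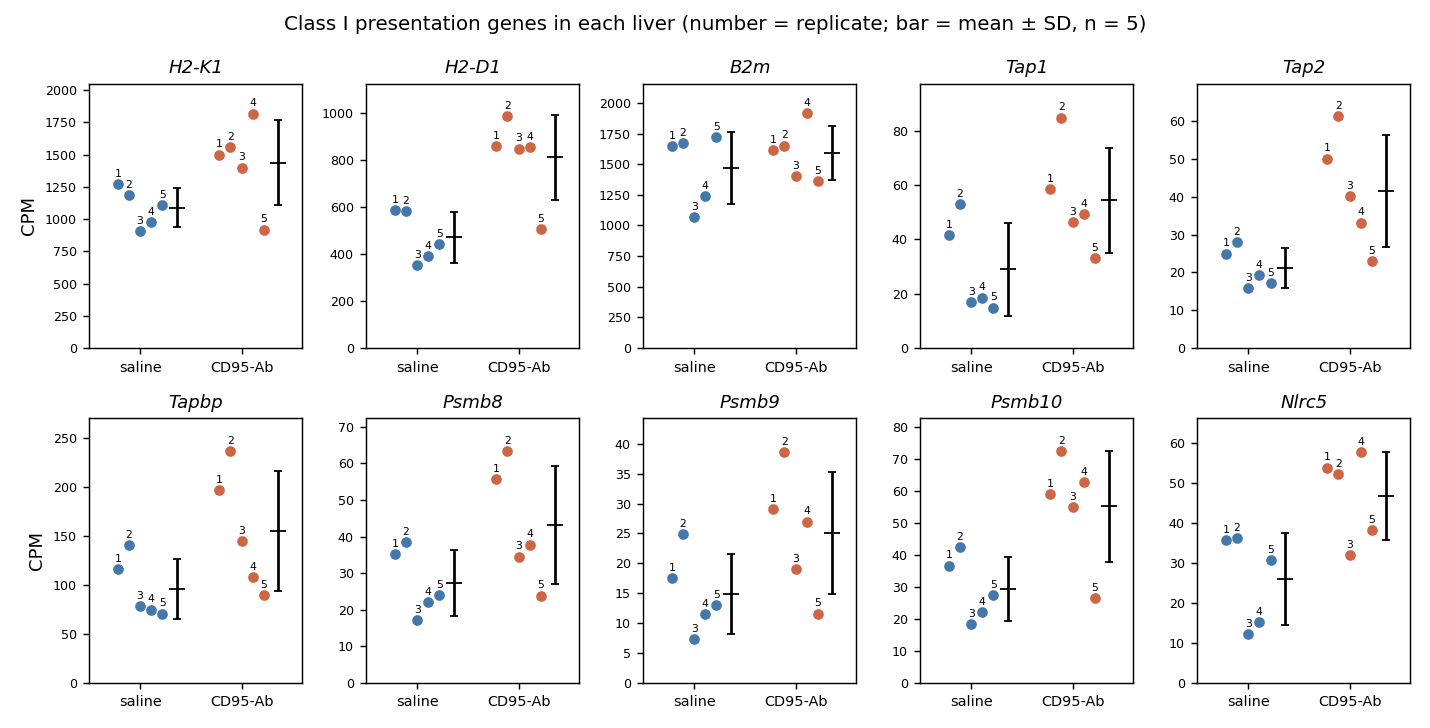
CPM (TMM-scaled) of the 10 class I presentation genes on a linear axis from 0 in each liver, with saline in blue and CD95-Ab in orange. Numbers beside points are replicates, and black bars are mean ± SD (n = 5). CD95-Ab mouse 5 is the lowest orange point in 9 of the 10 panels, and the groups overlap in all 10.

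Ratios within a mouse do not depend on how the totals were scaled, and H2-D1 rose relative to B2m. The FPKM of H2-D1 divided by that of B2m was 0.131 ± 0.015 in controls and 0.216 ± 0.038 after CD95-Ab (SD, n = 5 each). All 5 CD95-Ab mice, from 0.160 to 0.253, were above all 5 controls, from 0.108 to 0.144. On the log2 scale of CPM the difference was 0.65 (two-sided exact permutation test, p = 0.00794, adjusted p = 0.0265 by Benjamini-Hochberg over 10 ratios). With 5 mice in each group no smaller p than this can be reached. The ratio of H2-K1 to B2m went from 0.392 ± 0.041 to 0.470 ± 0.067 (SD, n = 5), a log2 difference of 0.25 that did not pass (exact permutation test, p = 0.0873, adjusted p = 0.125). H2-K1 exceeded H2-D1 by 3.0 ± 0.30 times in FPKM in controls and by 2.20 ± 0.21 times after CD95-Ab (SD, n = 5). This ratio differed by -0.40 on the log2 scale (exact permutation test, p = 0.0159, adjusted p = 0.0397). In FPKM no CD95-Ab mouse reached the controls (highest 2.54 against lowest 2.59), whereas on the log2 CPM scale the groups overlapped, with CD95-Ab mice up to 1.09 and controls from 1.02.

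Promoter sequence is shown for B2m and H2-K1 over 250 bases, and for H2-D1 as 2 blocks of 30 bases, because the 3 genes share sequence blocks and had log2 fold changes from 0.11 to 0.78. Sequences are from RefSeq on GRCm38.p6, and 8 of the 10 members had a window there. Tap2 and Nlrc5 had none. The 250 bases before the start site of B2m (chr2:122147437-122147686, plus strand) and of H2-K1 (chr17:34000348-34000597, minus strand) read as below, 5′ to 3′, with capitals marking letter matches to the patterns that follow.
B2m: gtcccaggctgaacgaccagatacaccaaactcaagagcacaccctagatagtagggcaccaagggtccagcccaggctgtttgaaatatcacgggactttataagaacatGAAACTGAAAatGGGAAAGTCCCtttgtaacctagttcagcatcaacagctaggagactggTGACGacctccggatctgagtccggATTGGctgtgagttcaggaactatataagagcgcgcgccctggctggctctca
H2-K1: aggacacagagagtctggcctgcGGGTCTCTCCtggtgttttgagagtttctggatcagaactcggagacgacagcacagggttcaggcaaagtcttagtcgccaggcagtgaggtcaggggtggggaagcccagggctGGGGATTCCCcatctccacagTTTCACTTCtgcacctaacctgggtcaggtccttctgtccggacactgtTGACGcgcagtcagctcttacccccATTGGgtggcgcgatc
The first capitals in B2m match GAAA repeated after a gap of 2 bases, the letters of the interferon-stimulated response element, which occur on either strand in 3.04% of the 27025 promoters of this length and in B2m alone among the 8 members. The next match GGG and TCC with 4 bases between them, an NF-κB-type pattern held by 16.3% of all promoters and by B2m and H2-K1 among the members. Another NF-κB-type pattern, GGG and TTCCC with 2 bases between them, was searched after the sequences had been read. It ends in CCC where the first ends in TCC, so it is not a narrower form of the first. It was found in H2-K1 and H2-D1 and in 1.44% of all promoters. In H2-K1 it starts at base -111 from the start site, and the match to the first pattern starts at -227. GAANNGAAA, the core letters of interferon regulatory factor sites and also added then, was found in the same pair and in 6.34%.

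In H2-K1 and H2-D1 these last 2 patterns stand at the same spacing, and the 30 bases that hold them are given with both patterns in capitals, the second one as its reverse complement. They lie at chr17:34000429-34000458 on the minus strand and chr17:35262923-35262952 on the plus strand.
H2-K1: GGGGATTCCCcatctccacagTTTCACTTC
H2-D1: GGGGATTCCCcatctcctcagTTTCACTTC
All 3 chains also hold TGACG, the core of the cyclic AMP response element, followed after 20 bases by ATTGG, which is CCAAT read from the other strand. This spacing was noticed in the sequences and occurs in 25 of the 27025 promoters, or 0.0925%. The blocks lie at chr2:122147609-122147638 (plus), chr17:34000359-34000388 (minus) and chr17:35262993-35263022 (plus), with TGACG and ATTGG in capitals.
B2m: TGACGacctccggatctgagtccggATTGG
H2-K1: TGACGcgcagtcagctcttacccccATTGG
H2-D1: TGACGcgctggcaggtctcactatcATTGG
On either strand and at any distance, TGACG was found in 5 of the 8 members (H2-K1, H2-D1, B2m, Tap1 and Psmb9) and in 17.9% of all promoters, and CCAAT in 6 of the 8 (the same 5 and Tapbp) and in 34.5%. The windows of Tap1 and Psmb9, which lie on opposite strands, overlap. Their TGACG matches are the same bases, and so are their CCAAT matches, so each of these sites is counted for both genes. TTCNNNGAA, the letters of the gamma-activated site, occurred in Psmb8 and in 7.18% of all promoters. These are letter matches and no binding was measured.

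Tap1 and Tap2 encode the paired chains of the peptide transporter, and Tapbp encodes tapasin, which bridges it to the heavy chain. Tap2 (ENSMUSG00000024339, chr17:34203527-34216321, plus strand) had 25.0, 28.1, 15.9, 19.4 and 17.3 CPM in controls 1 to 5 and 50.1, 61.3, 40.2, 33.2 and 22.9 CPM in CD95-Ab mice 1 to 5. CD95-Ab mice 1 to 4 were above every control and mouse 5 was not. Its fold change of 1.97, or 0.98 ± 0.25 (SE) on the log2 scale, was the largest of the 10 members (edgeR, FDR = 0.0072).

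Tap1 (ENSMUSG00000037321, chr17:34187553-34197225, plus strand) had 41.7, 52.9, 16.8, 18.6 and 14.9 CPM in controls 1 to 5 and 58.5, 84.8, 46.3, 49.4 and 33.1 CPM in CD95-Ab mice 1 to 5. The controls fell apart into mice 1 and 2, above 40 CPM, and mice 3 to 5, below 20 CPM, and 3 of the CD95-Ab mice lay within the range of the controls. With a log2 fold change of 0.91 ± 0.37 (SE), close to that of Tap2, Tap1 did not pass the threshold (edgeR, FDR = 0.0621). The ratio of Tap1 to Tap2 was 1.24 ± 0.43 in FPKM in controls and 1.29 ± 0.12 after CD95-Ab (SD, n = 5; exact permutation test on the log2 scale, p = 0.659).

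Tapbp (ENSMUSG00000024308, chr17:33915899-33929292, plus strand) had 116, 140.3, 78.4, 74.6 and 70.6 CPM in controls and 197, 237, 144, 108 and 89.1 CPM after CD95-Ab, in mice 1 to 5. Only CD95-Ab mice 1 to 3 were above every control. Its log2 fold change of 0.69 ± 0.28 (SE) did not pass (edgeR, FDR = 0.064). The gene spans of Tapbp and Zbtb22 overlap on the same strand by 3422 bases. In the longest coding transcript of Tapbp, 0.107% of the 100-base windows also occur in another gene, AC122861.4, and none was shared with Zbtb22. Other transcripts of Tapbp were not checked.

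Of 9 other genes of peptide loading and trimming, 4 were higher and 1 was lower, beside 25.4% and 22.0% of all genes tested. Their median log2 fold change was 0.29. Lnpep, an aminopeptidase of endosomes that trims peptides for cross-presentation, had the largest value at 1.2 ± 0.36 (SE; edgeR, FDR = 0.0176). Tapbpl, the tapasin-related protein that edits peptides away from TAP, had 0.82 ± 0.23 (SE; edgeR, FDR = 0.0106), which was above the value of Tapbp itself. Uggt1, which returns misfolded glycoproteins to the chaperones, was higher by 0.57 (edgeR, FDR = 0.0173), and the cytosolic peptidase Tpp2 by 0.38, with all 5 CD95-Ab mice above all controls (edgeR, FDR = 0.0041). The 1 lower gene was Bcap31, a sorting receptor for newly made class I chains, which fell by 0.33 (edgeR, FDR = 0.0490). Erap1, the aminopeptidase that trims peptides in the endoplasmic reticulum, had 0.21 ± 0.28 (SE; edgeR, FDR = 0.572).

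The 3 inducible subunits Psmb8, Psmb9 and Psmb10 take the places of Psmb5, Psmb6 and Psmb7 in the immunoproteasome, which cuts more peptides with ends that suit class I. Psmb10 (ENSMUSG00000031897, chr8:105935735-105938444, minus strand) had 36.7, 42.4, 18.4, 22.1 and 27.4 CPM in controls 1 to 5 and 59.1, 72.5, 55.0, 62.7 and 26.6 CPM in CD95-Ab mice 1 to 5. CD95-Ab mice 1 to 4 were above every control, and mouse 5 was below controls 1, 2 and 5. Psmb10 had a log2 fold change of 0.91 ± 0.28 (SE; edgeR, FDR = 0.0186), a fold of 1.88, and did not pass with library totals in place of TMM factors (edgeR, FDR = 0.0506).

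Psmb8 (ENSMUSG00000024338, chr17:34197721-34201454, plus strand) had 35.2, 38.5, 17.2, 22.0 and 23.9 CPM in controls and 55.8, 63.4, 34.5, 37.8 and 23.9 CPM after CD95-Ab, in mice 1 to 5. Psmb9 (ENSMUSG00000096727, chr17:34181987-34187764, minus strand) had 17.6, 24.8, 7.38, 11.5 and 13.0 CPM in controls and 29.04, 38.7, 19.1, 27.0 and 11.6 CPM after CD95-Ab. In both genes controls 1 and 2 overlapped with the CD95-Ab mice and CD95-Ab mouse 5 lay among the controls. Neither passed the threshold, with log2 fold changes of 0.65 ± 0.28 (SE; edgeR, FDR = 0.0763) for Psmb8 and 0.75 ± 0.35 (SE; edgeR, FDR = 0.0923) for Psmb9.

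Psmb9 and Tap1 stand back to back, with RefSeq start sites 226 bases apart on opposite strands (34187330 and 34187556 on chromosome 17). Their gene models overlap by 212 bases, and whether the counting used strand is not given in the sources used here. The ratio of Tap1 to Psmb9 was 0.881 ± 0.231 in FPKM in controls and 1.03 ± 0.19 after CD95-Ab (SD, n = 5; exact permutation test on the log2 scale, p = 0.262).

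The constitutive partners had log2 fold changes near 0, at 0.02 ± 0.19 for Psmb5, -0.01 ± 0.18 for Psmb6 and -0.15 ± 0.11 for Psmb7 (SE). Of these 3, 0 were called by edgeR, by DESeq2 or at an unadjusted p of 0.05. Over all genes tested, edgeR called 47.3% in either direction. Psmb10 relative to Psmb7 went from 0.267 ± 0.115 to 0.534 ± 0.142 in FPKM (SD, n = 5), a log2 difference of 1.05 in CPM (exact permutation test, p = 0.0238, adjusted p = 0.0476). CD95-Ab mouse 5, at 0.291, was the single mouse of its group within the control range, which reached 0.412. Psmb9 relative to Psmb6 went from 0.114 ± 0.058 to 0.192 ± 0.069 (SD, n = 5; exact permutation test, p = 0.0873, adjusted p = 0.125), and Psmb8 relative to Psmb5 from 0.280 ± 0.138 to 0.421 ± 0.177 (SD, n = 5; exact permutation test, p = 0.143, adjusted p = 0.179). In both groups the mean FPKM of each inducible subunit stayed below that of its partner.

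Of the other proteasome genes, 1 of 11 shared 20S subunits was higher, Psma5 with a log2 fold change of 0.29 (edgeR, FDR = 0.0479), and 0 were lower. DESeq2 called 0 of these 11. Of all genes tested, edgeR called 25.4% higher and 22.0% lower. Among 5 activator and assembly genes, Psme3, the nuclear activator PA28γ, was higher by 0.52 (edgeR, FDR = 0.0046). The interferon-inducible activator subunits Psme2, with 0.38 ± 0.16, and Psme1, with 0.10 ± 0.22 (SE), did not pass (edgeR, FDR = 0.0704 and 0.734).

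**Figure D2:**
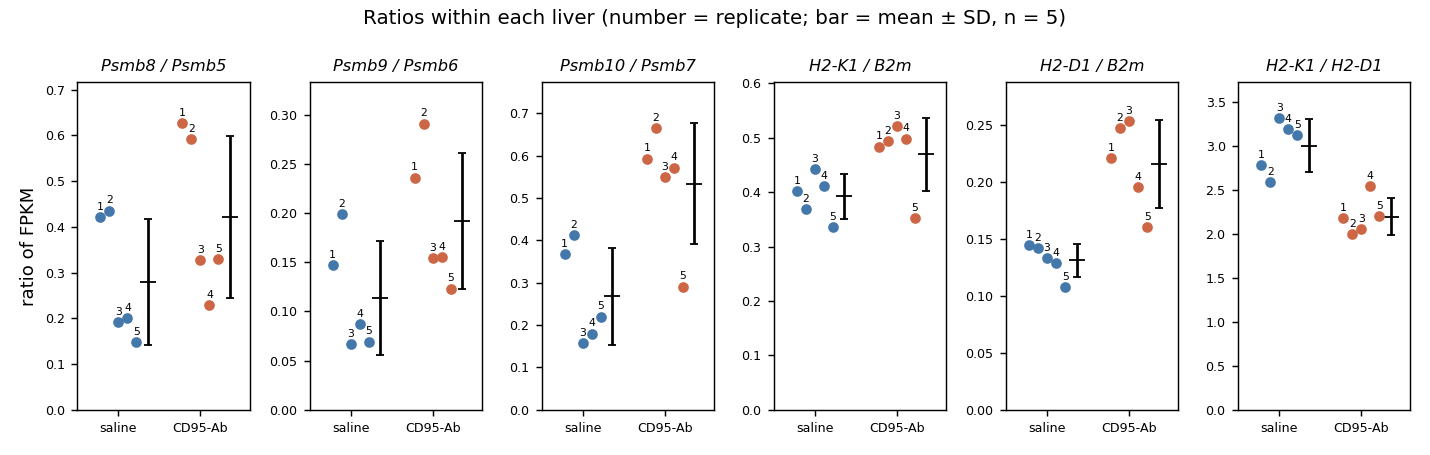
Ratios of FPKM within each liver for 3 inducible proteasome subunits over their constitutive partners, both heavy chains over B2m, and H2-K1 over H2-D1. Points are mice with replicate numbers, black bars are mean ± SD (n = 5), and axes start at 0. The groups do not overlap for H2-D1 over B2m and for H2-K1 over H2-D1, and they overlap for Psmb10 over Psmb7 through CD95-Ab mouse 5.

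Nlrc5 (ENSMUSG00000074151, chr8:94434356-94527272, plus strand) encodes the transactivator that gathers RFX, CREB and NF-Y factors on class I promoters. It had 35.6, 36.1, 12.2, 15.2 and 30.7 CPM in controls 1 to 5 and 53.8, 52.2, 32.0, 57.5 and 38.1 CPM in CD95-Ab mice 1 to 5. Here CD95-Ab mouse 3 was the lowest of its group and the 1 mouse below the highest control. The log2 fold change was 0.85 ± 0.30 (SE; edgeR, FDR = 0.0363), a fold of 1.80. Nlrc5 did not pass with upper quartile factors (edgeR, FDR = 0.0586) or with library totals (edgeR, FDR = 0.0784) in place of TMM factors. The gene overlaps 9330175E14Rik on the opposite strand by 748 bases.

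Of 21 genes for transcription factors and kinases of the class I and interferon pathways, 13 were higher and 3 were lower. Over all genes tested these shares were 25.4% and 22.0%. The median log2 fold change of the 21 was 0.77. The NF-κB genes Relb, Nfkb2 and Rel had the largest values, at 3.84 ± 0.28, 3.30 ± 0.20 and 2.71 ± 0.22 (SE), and all 5 CD95-Ab mice were above all 5 controls in each (edgeR, FDR = 1.81e-06, 5.21e-07 and 3.19e-06). Irf1, an interferon regulatory factor that acts on these promoters, had 1.46 ± 0.32 (SE; edgeR, FDR = 0.0026), again with no overlap between groups. The 3 lower genes were Irf2, a factor that competes with IRF1, which fell by 0.75 (edgeR, FDR = 0.00074), Rfxap, which fell by 0.59 (edgeR, FDR = 0.0033), and Nfyc, which fell by 0.28 (edgeR, FDR = 0.0455). The other RFX subunits were higher, Rfxank by 1.11 and Rfx5 by 0.56 (edgeR, FDR = 0.0060 and 0.0280). The other 5 did not pass, among them Creb1 at 0.32 ± 0.14 and Irf9 at 0.32 ± 0.17 (SE; edgeR, FDR = 0.0752 and 0.132).

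Transcripts of the interferons themselves were at the limit of detection. Ifng, the type II interferon, had at most 5 counts in any control and at most 8 in any CD95-Ab mouse, and was too low to test. Ifnb1, Ifna1, Ifna2, Ifna4, Ifna5, Ifnl2 and Ifnl3 had 0 counts in all 10 mice, where 3 counts per library correspond to between 0.0483 and 0.116 CPM. The receptor genes Ifngr1 and Ifngr2 were higher, with log2 fold changes of 1.13 ± 0.16 and 0.82 ± 0.18 (SE; edgeR, FDR = 0.00013 and 0.0028). Ifnar1 and Ifnar2 had 0.23 ± 0.12 and 0.15 ± 0.13 (SE) and did not pass (edgeR, FDR = 0.136 and 0.339).

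Among 18 other class I-like chains, 15 were tested, of which 4 were higher and 3 were lower, shares near the 25.4% and 22.0% of all genes tested, so the counts are no result about these chains. The higher ones were H2-Q6 at 1.72 ± 0.39 and H2-Q4 at 1.69 ± 0.33, H2-M3 at 1.08 ± 0.30 and H2-Q7 at 0.87 ± 0.27 (log2 fold change ± SE; edgeR, FDR = 0.0033, 0.0015, 0.00998 and 0.0207). H2-Q4 and H2-Q6, nonclassical chains of the Q region of the MHC, had log2 fold changes above that of every member of the classical pathway, and all 5 CD95-Ab mice were above all controls in both. H2-Q4 had 26.7 to 69.5 CPM in controls and 94.6 to 278 CPM after CD95-Ab. Of the 100-base windows, 10.8% in H2-Q6, 16.4% in H2-Q7 and 2.66% in H2-Q4 were shared with another gene, and 166 were common to H2-Q6 and H2-Q7, so the separate values of these last 2 are uncertain. H2-Q10, a secreted chain made by hepatocytes, had 1169 ± 95.4 FPKM in controls and 1010 ± 140.3 FPKM after CD95-Ab (SD, n = 5), above H2-K1 in both group means, with a log2 fold change in CPM of -0.02 ± 0.20 (SE; edgeR, FDR = 0.928).

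The 3 lower chains do not present cytosolic peptides to T cells. Cd1d1, which presents lipids, fell by 0.61 (edgeR, FDR = 0.00045), Fcgrt, the receptor that recycles IgG and albumin, fell by 0.61 (edgeR, FDR = 0.0011), and Hfe, a regulator of iron uptake, fell by 0.43 (edgeR, FDR = 0.0022). All 5 CD95-Ab mice were below all 5 controls in each of these genes, an order found for 14.7% of the genes tested. For Cd1d1, 14.6% of windows were shared with Cd1d2, which was itself too low to test.

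**Figure D3:**
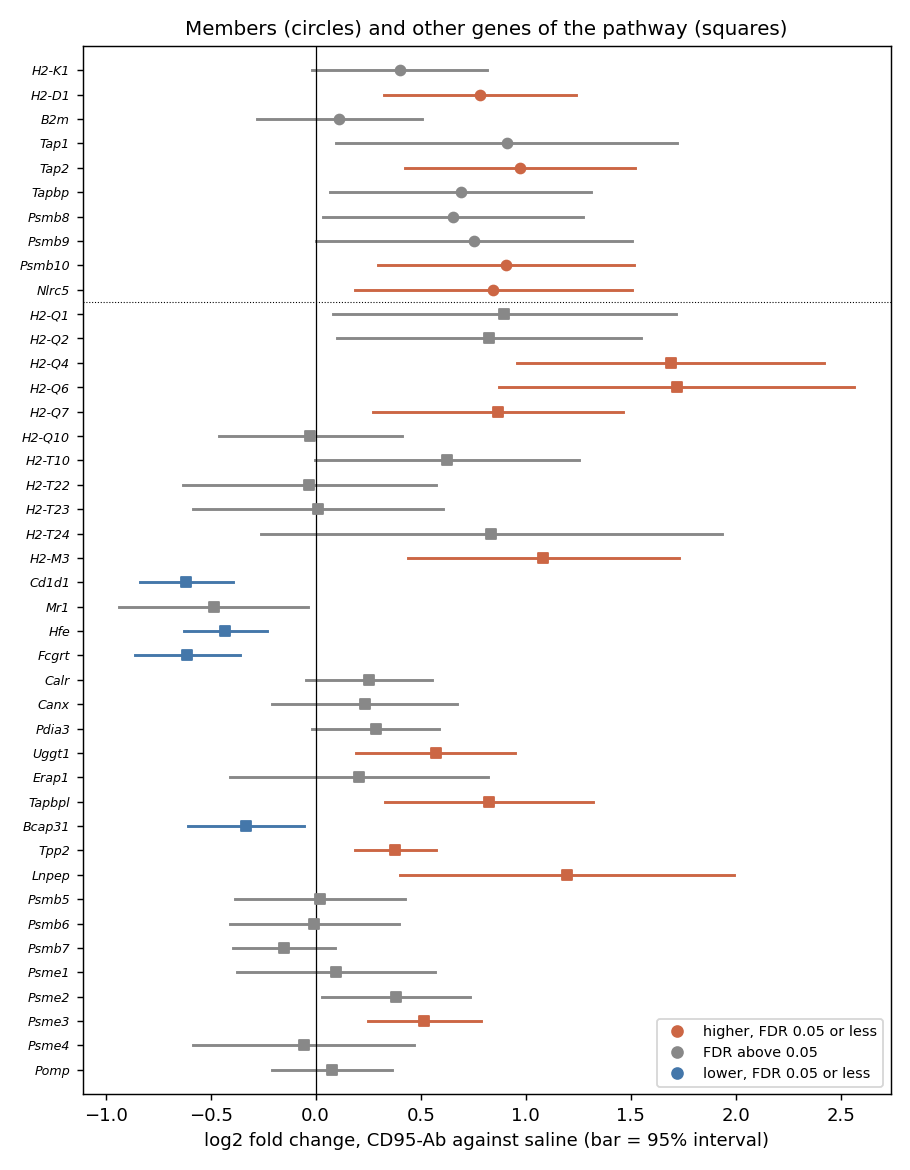
Log2 fold change of CD95-Ab against saline (horizontal axis) with its 95% interval from the edgeR fit, for the 10 members (circles, above the dotted line) and all tested genes of 4 related lists (squares). Orange marks higher and blue lower at an FDR of 0.05 or less, and grey marks the rest. All 10 member values lie right of 0, from 0.11 for B2m to 0.98 for Tap2, and H2-Q4 and H2-Q6 lie farthest right.

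The median coefficient of variation of the 10 members between mice was 32.6% in controls and 33.3% after CD95-Ab, beside 19.4% and 21.6% over all genes tested. Among controls it ran from 13.7% for H2-K1 to 59.4% for Tap1, and after CD95-Ab from 14.0% for B2m to 41.0% for Psmb9. Controls 1 and 2 were the 2 highest controls in 9 of the 10 members, an order found in 16.6% of tested genes, and B2m was the exception through control 5. With library totals in place of TMM factors this order held in 10 of 10 members and in 35.4% of tested genes. Over all genes, the counts of controls 1 and 2 also differed less from each other than from those of any other control. Control 3 was the lowest control in 8 members, against 21.8% of tested genes. In the other group, CD95-Ab mouse 5 was the lowest in 9 members, against 18.97% of tested genes, and CD95-Ab mouse 2 was the highest in 7, against 11.4%. The same 2 controls also had the highest sums of Kupffer cell and macrophage markers, at 398 and 502 CPM against 149.9 to 266 CPM in controls 3 to 5, and of lymphocyte markers, at 19.2 and 19.3 CPM against 5.92 to 11.3 CPM. Ptprc made up 13.3 and 13.0 CPM of these 2 lymphocyte sums. Controls 1 and 2 had the lowest sums of sinusoidal endothelial markers, at 94.0 and 63.1 CPM against 111 to 153 CPM. CD95-Ab mouse 5 had 570 CPM of the Kupffer cell and macrophage markers, 78.3 CPM of the lymphocyte markers, the highest of its group, and 56729 CPM of the hepatocyte markers, the lowest. Of its lymphocyte sum, 66.1 CPM was Ptprc. The part of these cells in the order of the mice was not tested.

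The number of members called depended on single mice. Without CD95-Ab mouse 5 it was 9, all but B2m, while 24.1% of all genes tested were called higher in that fit. Without control 2 it was 8, all but H2-K1 and B2m, beside 23.8% of all genes tested, and without control 4 it was 2, H2-D1 and Tap2, beside 22.6%. H2-D1 and Tap2 were called in each of the 10 fits that left out 1 mouse, with log2 fold changes from 0.69 to 0.91 and from 0.79 to 1.13. Psmb10 lost its call without control 4 (edgeR, FDR = 0.0545). Nlrc5 lost its call without control 3 or 4 or without CD95-Ab mouse 1, 2 or 4 (edgeR, FDR = 0.0597 to 0.0971). Tap1 passed without control 1, control 2 or CD95-Ab mouse 5, and Tapbp passed without control 2 or without CD95-Ab mouse 4 or 5. Psmb8 and Psmb9 passed without control 2 or CD95-Ab mouse 5, and H2-K1 passed without CD95-Ab mouse 5. Without CD95-Ab mouse 5, the 4 genes H2-K1, H2-D1, Tap2 and Psmb10 had all remaining CD95-Ab mice above all controls, as did 20.01% of tested genes, and without CD95-Ab mouse 3 this held for Nlrc5 and for 19.2% of tested genes.

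**Figure D4:**
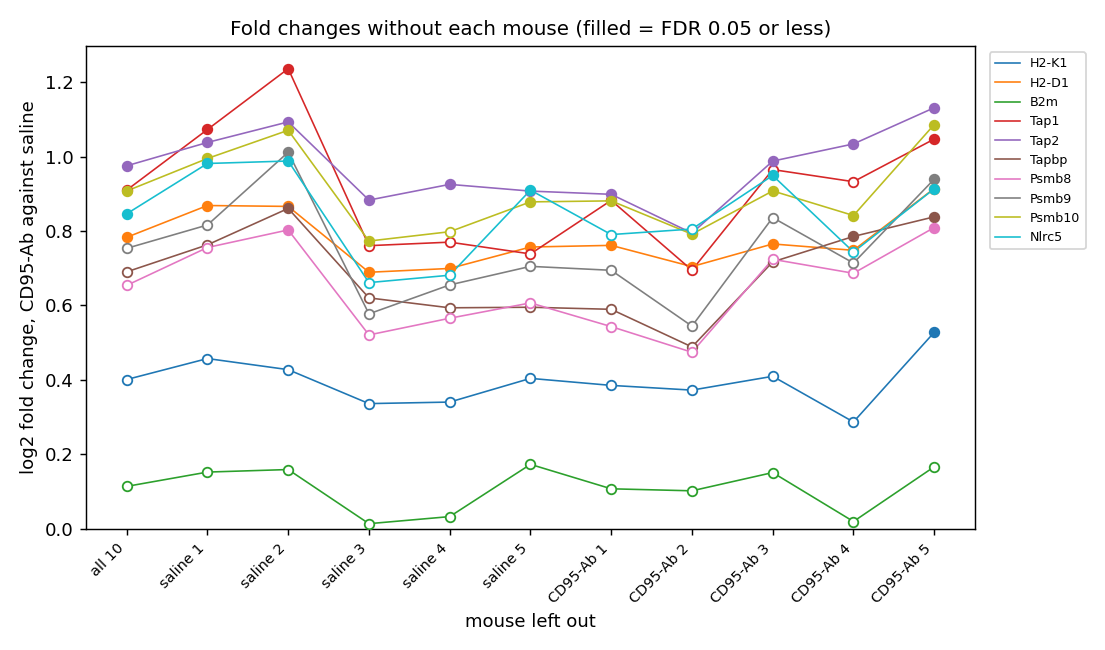
Log2 fold change of each member (lines) with all 10 mice and with each mouse left out in turn (horizontal axis). Filled points have an FDR of 0.05 or less in that edgeR fit, and the lines join fits for reading only. H2-D1 and Tap2 are filled throughout, B2m is open throughout, and 9 members are filled without CD95-Ab mouse 5.

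B2m is also the reference gene of the quantitative PCR of Tnf and Il6 in the study, which is not analysed here. Among 13 genes that laboratories use for such scaling, B2m ranked 3 from the lowest by the size of its log2 fold change, at 0.11, after Pgk1 at 0.03 and Gusb at 0.07. Actb and Ywhaz were higher, by 1.96 and 0.55 (edgeR, FDR = 1.31e-05 and 0.0011). Between single mice B2m spanned 1070 to 1718 CPM in controls and 1363 to 1918 CPM after CD95-Ab. Scaled to B2m within each mouse, Tnf differed by 4.26 and Il6 by 2.74 on the log2(CPM + 0.1) scale (exact permutation test, p = 0.00794 each, adjusted p = 0.0265). Both cytokines had 0 counts in at least 1 control, so these differences depend on the pseudocount, and with a pseudocount of 1 they were 1.89 and 0.91.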

How the data were processed

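RNA of the livers of 10 mice was sequenced, 5 injected with saline and 5 with CD95-Ab, and the group and replicate number of each mouse were taken from the sample labels, which call the replicates biological. Reads were assigned by the authors with RSEM 1.2.19, a program that divides reads that fit several genes between them. All tests used the deposited expected counts, which carry no normalization and were rounded to whole numbers. The deposited FPKM, divided by transcript length and total, served for levels and ratios between genes. The annotation named in the methods is a human release, whereas the identifiers are mouse Ensembl identifiers. The mouse release and build are not given in the sources used here. Symbols and positions came from GENCODE release M21 (GRCm38), which matched 37606 of 38922 identifiers.

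Genes were kept with filterByExpr (minimum count of 10), scaled with TMM factors and tested with edgeR 4.0.16 in R 4.3.3 (glmQLFit and glmQLFTest), with group as the only term and Benjamini-Hochberg adjustment over 13719 genes. CPM are counts per 1000000 of the TMM-adjusted total. Totals of 25965699 to 62097636 counts put 3 counts at 0.0483 to 0.116 CPM. Standard errors were derived from the F statistic. Ratios were tested on log2(CPM + 0.1) with a two-sided exact permutation test in Python 3.11.15 with scipy 1.17.1. Code was tested on simulated data. Mice of a group differed by far more than sampling noise (chi-square per degree of freedom of 39.4 to 515 over genes), so each counted as 1 sample. Controls 3 and 4 (39.4) and controls 1 and 2 (43.8) were the closest pairs, and all other pairs within a group lay from 94.45 to 515. The check looks for duplicate libraries and cannot show whether mice shared a cage or a batch.

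The members and lists were chosen with earlier results of these data known. Named were all members, the genes of the ratios and, in each other list, the 3 highest and 2 lowest log2 fold changes. H2-Q7, H2-Q10, Hfe, Irf1, Rfx5, Rfxank, Nfyc and the other genes named beyond this rule were chosen after their values were seen. GAANNGAAA, the added NF-κB-type pattern and the spaced pattern were likewise chosen after the promoters had been read. Single values of some listed genes are not reported here. Alternatives were DESeq2 1.42.0, the likelihood ratio test, other scalings and filters, other thresholds and pseudocounts, leaving out 1 mouse at a time, and a block for the replicate number. No sequencing or extraction batch is given in the labels, so nothing was recomputed within batches.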

Additional observations from a re-analysis of the deposited data

Results flagged for a closer look

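In 3 of 40 groups of 5 mice examined, 1 mouse stood apart from the other 4 by more than Dixon's 95% limit, which chance exceeds in about 1 in 20 groups. In all 3 it was CD95-Ab mouse 5, at the low end. It had 508 CPM of H2-D1, whereas the other CD95-Ab mice had 850 to 989 CPM. Its log2 ratio of Psmb10 to Psmb7 was -1.64, against -0.72 to -0.45 in the others. Its log2 ratio of H2-K1 to B2m was -0.57, against -0.11 to -0.0033 in the others. Without this mouse, the log2 difference in H2-K1 to B2m was 0.35 (exact permutation test, adjusted p = 0.0317) in place of 0.25. Because the mouse was flagged as the lowest of this same ratio, leaving it out had to raise the difference, and this p is a description only. The 40 groups also share mice and genes and are not independent.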

How the results depend on the processing

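All 10 members kept a positive log2 fold change in every alternative run. Of 190 values of single members under an alternative, 163 stayed on the same side of the FDR threshold, 18 newly passed it and 9 no longer did. One alternative, a pseudocount of 2 in the edgeR fold changes, leaves the test itself unchanged. Its values of all 10 members are among the 163 and had to stay. The count of members called higher was 4, and it became 2 with library totals in place of TMM factors, 2 at an FDR of 0.01, and 2 to 9 with 1 mouse left out. Of all genes tested, 25.4% were called higher, and 22.6% to 25.6% with 1 mouse left out. With library totals 6122 genes were called in either direction, and at an FDR of 0.01 the share was not worked out. The count without overlap between groups was 0, beside 18.6% of tested genes. With 1 mouse left out it was 0 to 4, beside 18.9% to 22.4%. The median log2 fold change of all genes was -0.07 with upper quartile factors or library totals. Mice with the same replicate number deviated together with correlations of 0.257, 0.0875, 0.130, -0.0166 and -0.274, and 2 of 5 correlated best with their own number. The mean correlation was 0.037 for the same number and -0.0062 for different numbers. With 5 pairs this cannot settle whether mice with the same number shared anything else. With the replicate number as a block, 8 members were called, adding Tap1, Tapbp, Psmb8 and Psmb9. Over all genes 5987 were called in either direction with the block, against 6495 without it. The blocked exact sign-flip permutation test of a ratio cannot go below p = 0.0625, so the log2 differences of 1.05 for Psmb10 to Psmb7, 0.65 for H2-D1 to B2m, -0.40 for H2-K1 to H2-D1, 4.26 for Tnf and 2.74 for Il6 could not pass in it. Leaving out 1 mouse gave 0.88 to 1.25, 0.57 to 0.76, -0.47 to -0.36, 4.02 to 4.38 and 2.52 to 3.03 for these 5 ratios, and 0.19 to 0.35 for H2-K1 to B2m. With 4 mice against 5, adjusted values of these 5 ratios lay between 0.0317 and 0.0952, in part because fewer splits exist. Tap1 to Tap2, which was not called, ranged from -0.017 to 0.26, with the sign reversed without control 5. The interferon transcripts were too low to test, and 5 mice per group left intervals of member log2 fold changes up to 1.62 wide.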
